A study of Mus musculus with 8 samples.

Results

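Expression in the epidermis of mice that lack Tcl1 was compared directly with that of mice which lack it too but carry a TCL1 transgene in basal keratinocytes (KCs). The comparison used 6 of the 8 deposited Affymetrix arrays, 3 Tcl1-/- (knockout) and 3 K14-TCL1 (transgenic). They were chosen by their genotype label, and the 2 WT arrays were left aside. K14-TCL1 stands for K14-TCL1;Tcl1-/-, that is, human TCL1A under the keratin 14 promoter on the knockout background, so the loss of mouse Tcl1 is shared by both groups and the transgene is what the labels say differs. Both groups were depilated, and skin was taken 3 days later. It was kept in dispase overnight in the cold before the epidermal sheet was lifted off the dermis. Any part of this step in the levels below was not tested. The methods give 3 animals and 3 independent chips for each genotype, while the deposit holds 2 WT arrays. The mice are described as adult, with no age in weeks, sex, litter or founder line. C57bl/6 is named for the WT mice, and no strain is stated for the other genotypes. Any strain or litter that follows the genotype therefore cannot be told apart from it, and in a sheet of mixed cells fewer cells of a type and less RNA per cell cannot be told apart either.

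TCL1 is a small protein best known from lymphoid leukemia, where it binds the kinase AKT and raises its activity. The keratin 14 promoter is active in basal KCs, the dividing layer from which the spinous, granular and cornified layers arise. Depilation pulls out the hair shafts, which drives resting follicles into growth and activates the KCs of the surrounding epidermis. Activated KCs switch on keratins 6 and 16, S100 alarmins and ligands of the EGF receptor, whereas the resting granular layer makes filaggrin, loricrin and other proteins of the cornified envelope.

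The values were RMA intensities taken to the log2 scale, and every difference below is K14-TCL1 minus Tcl1-/- on that scale with its SE. Log2 medians of the 6 arrays lay between 6.53 and 6.55. Within a genotype the arrays correlated at 0.998 to 0.999 over all probe sets, and between genotypes at 0.995 to 0.996. Component 1 of a principal component analysis held 72.4% of the variance and separated the genotypes, with the Tcl1-/- arrays at -10.7 to -10.3 and the K14-TCL1 arrays at 10.2 to 10.9. Component 2, with 10.9%, set K14-TCL1 replicate 2 (8.06) apart from replicates 1 (-3.33) and 3 (-4.94). KC markers gave strong signal in both groups, with Krt14 at 13.95, 13.95 and 13.95 in the Tcl1-/- arrays and 14.01, 13.98 and 13.99 in the K14-TCL1 arrays, and Krt10 at 14.20, 14.19 and 14.20 in Tcl1-/- and 14.04, 14.08 and 14.09 in K14-TCL1. The probe set of Tcl1 itself averaged 5.02 in Tcl1-/- and 5.01 in K14-TCL1, a difference of -0.0096 ± 0.065 (adjusted p = 0.93). It checks no label, since its place in the deletion and its match to the human sequence were not tested. Of the other Tcl1 family genes, Tcl1b3, at 10.06 in Tcl1-/- and 10.13 in K14-TCL1, differed by 0.078 ± 0.058 and did not pass, nor did Tcl1b4 or Mtcp1. Tcl1b1 was lower by a small margin, at -0.13 ± 0.036 (adjusted p = 0.0375), and did not pass with any 1 of the 6 arrays left out.

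Of the 13201 genes measured, 9694 reached a mean of 5 on the log2 scale in at least 1 genotype and were tested with limma. At a Benjamini-Hochberg adjusted p under 0.05, 2310 genes were called (23.8% of those tested), 1086 higher in K14-TCL1 (11.2%) and 1224 lower (12.6%). There were 1351, 1498 and 1450 calls without Tcl1-/- replicate 1, 2 or 3. Most calls were small, with a median fold of 1.17 against a median within-genotype SD of 0.060 on the log2 scale. The large differences ran mostly upward. Past 1.5-fold 99 genes were higher and 28 lower, past 2-fold 40 and 5, and past 4-fold 15 and 1. Of the 1086 genes called higher 24 averaged under 5 in Tcl1-/- (7 of the 40 past 2-fold), and of the 1224 called lower 17 did so in K14-TCL1 (2 of the 5), so that their folds rest on values under the filter. The 6 arrays did not overlap between genotypes for 2307 of the called genes, and for 4148 of all genes tested (42.8%). With the filter and threshold that the methods state (1.4-fold from the median on 20% of arrays, unadjusted p under 0.001) 118 probe sets passed the filter and limma called 98 of them (83.1%), 74 higher and 24 lower. This count was 157 to 223 with any 1 array left out.

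**Figure D1:**
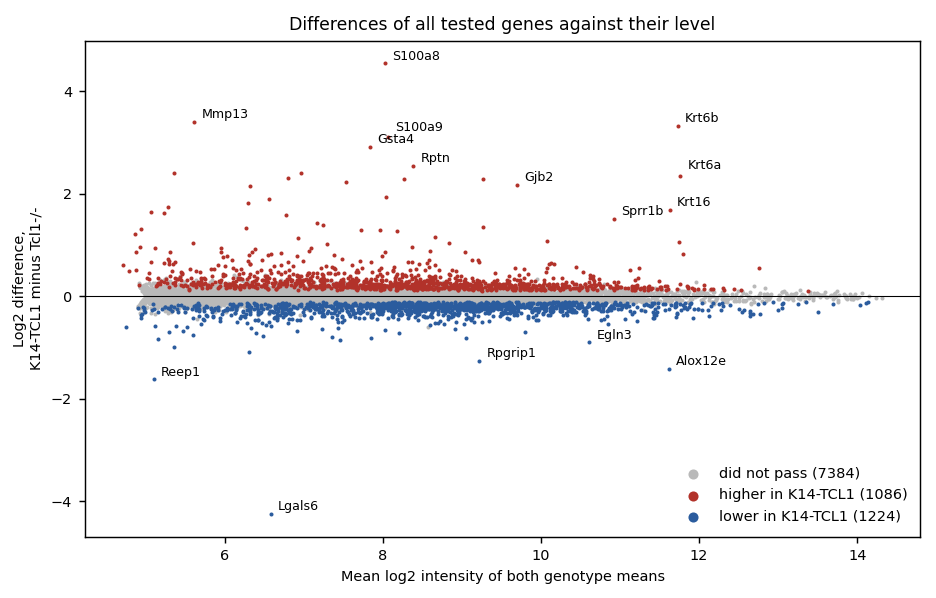
Log2 difference (K14-TCL1 minus Tcl1-/-) of each of the 9694 tested genes against the mean of both genotype means, with genes that passed the test in red (1086 higher) or blue (1224 lower). The points past a difference of 2 are nearly all above 0, and Lgals6, at -4.25, stands alone below.

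S100a8 had the largest rise. This gene and S100a9 encode the subunits of calprotectin, a calcium-binding alarmin made by stressed KCs and by neutrophils. S100a8 read 5.68, 5.83 and 5.77 in the Tcl1-/- arrays and 10.35, 10.23 and 10.34 in the K14-TCL1 arrays, a difference of 4.55 ± 0.053 or 23.4-fold (adjusted p = 8.39e-09). S100a9 read 6.51, 6.60 and 6.41 in Tcl1-/- and 9.60, 9.63 and 9.64 in K14-TCL1, 8.66-fold higher (adjusted p = 6.9e-08). In neither gene did any array of a genotype come near the other genotype. Next was Mmp13, a collagenase of the wound edge, at 3.79, 3.96 and 4.01 in the Tcl1-/- arrays and 7.31, 7.49 and 7.14 in the K14-TCL1 arrays (10.5-fold, adjusted p = 8.02e-07). Its Tcl1-/- mean of 3.92 is under the filter value of 5, so it was tested through its K14-TCL1 level alone. The keratins of activated KCs followed. Krt6b read 10.08, 10.07 and 10.05 in Tcl1-/- and 13.40, 13.40 and 13.38 in K14-TCL1, a rise of 3.33 ± 0.033 (adjusted p = 6.12e-09). Krt6a read 10.55, 10.61 and 10.60 in the Tcl1-/- arrays and 12.97, 12.89 and 12.93 in the K14-TCL1 arrays, a rise of 2.35 ± 0.038 (adjusted p = 6.9e-08). In both keratins the 3 arrays of a genotype were nearly equal.

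Other genes among the 12 largest rises were of several kinds. Gsta4, a glutathione transferase that clears products of lipid peroxidation, rose 7.55-fold. Its Tcl1-/- arrays were spread, at 6.61, 6.48 and 6.04, and its K14-TCL1 arrays were not, at 9.26, 9.36 and 9.27. Rptn, which encodes the envelope protein repetin, read 7.19, 6.97 and 7.17 in Tcl1-/- and 9.67, 9.70 and 9.60 in K14-TCL1 (5.84-fold). Wfdc12, a protease inhibitor of the whey acidic protein family, rose 4.87-fold. Also in this set were Cyp2g1 (5.31-fold), Tmem87a (4.95-fold) and 2610528A11Rik (4.9-fold). Just below these came Tmem45b (4.67-fold), the connexin gene Gjb2 (4.52-fold), Procr (4.44-fold), which encodes the endothelial protein C receptor, and Has3 (3.52-fold), a synthase of hyaluronan. Thbd (thrombomodulin) rose 2.51-fold, Odc1, the first enzyme of polyamine synthesis, 2.54-fold and Aqp3, the glycerol and water channel of KCs, 2.1-fold.

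**Figure D2:**
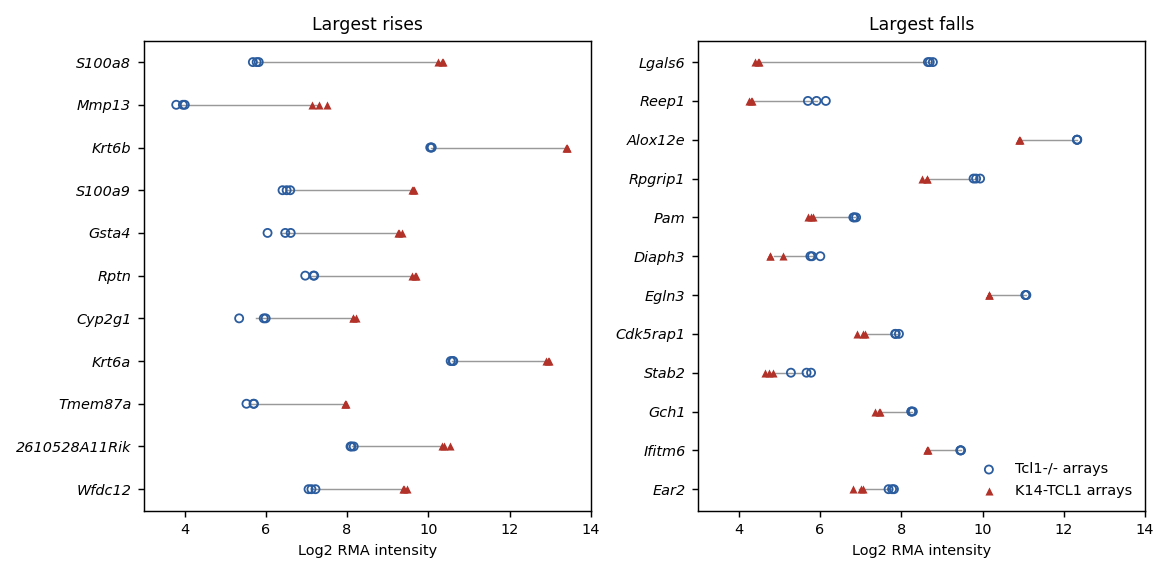
Log2 RMA intensity of every array for genes with the largest rises (left) and falls (right) and with no overlap between the genotypes, with open circles for Tcl1-/-, triangles for K14-TCL1 and a line between the genotype means. The gap is wide for all genes on the left, and on the right Lgals6 is alone in falling by more than 4 log2 units.

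Past 1.5-fold there were fewer falls than rises, although more genes were called lower than higher in all. The largest was that of Lgals6, a galectin gene for which any part of mouse strain was not tested. It read 8.70, 8.65 and 8.78 in the Tcl1-/- arrays and 4.41, 4.47 and 4.49 in the K14-TCL1 arrays, a difference of -4.25 ± 0.045, which makes Tcl1-/- 19.1-fold higher (adjusted p = 6.12e-09). All 3 K14-TCL1 values lie below the filter value of 5. So do those of Reep1, which fell from 5.91, 6.14 and 5.70 to 4.32, 4.26 and 4.30. Alox12e, an epidermal lipoxygenase gene of mice, read 12.33, 12.32 and 12.32 in Tcl1-/- and 10.89, 10.90 and 10.92 in K14-TCL1, a fall of 2.68-fold with no overlap. Rpgrip1 fell 2.4-fold and Pam, the enzyme that amidates peptide hormones, 2.12-fold. The formin gene Diaph3 fell 1.98-fold, Egln3, a prolyl hydroxylase of the hypoxia pathway, 1.87-fold and Gch1, which starts the synthesis of tetrahydrobiopterin, 1.77-fold. Cdk5rap1, Stab2, Ifitm6 and Ear2 had differences of -0.86, -0.83, -0.82 and -0.80. Diaph3 and Stab2 averaged 4.87 and 4.74 in K14-TCL1, under the filter value of 5. Outside this set, Ptgs2 (cyclooxygenase 2) fell by 0.78 on the log2 scale, from 6.69, 6.97 and 6.97 to 6.11, 6.06 and 6.11.

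AP-1 dimers of FOS and JUN proteins bind the letters TGANTCA and are known to drive envelope, metalloproteinase and activation genes in KCs. Promoter windows of some genes are therefore shown, each with 250 bases before and 50 after the RefSeq start (GRCm38.p6). They read 5′ to 3′ on the strand of the gene, and the choice does not represent all rises or falls. Capitals mark TGANTCA and TATAAA, both searched on either strand, and where no capitals stand neither was found. Mmp13, Rptn and S100a8 are from the largest rises, while Sprr1b and Sprr2i were chosen after their values were seen. Fos is a member of AP-1 that fell, but is not among the largest falls. Windows of 2610528A11Rik, S100a9, Tmem87a and Wfdc12, also from the largest rises, held no TGANTCA and are not shown.
Mmp13 (chr9:7272264-7272563, plus strand): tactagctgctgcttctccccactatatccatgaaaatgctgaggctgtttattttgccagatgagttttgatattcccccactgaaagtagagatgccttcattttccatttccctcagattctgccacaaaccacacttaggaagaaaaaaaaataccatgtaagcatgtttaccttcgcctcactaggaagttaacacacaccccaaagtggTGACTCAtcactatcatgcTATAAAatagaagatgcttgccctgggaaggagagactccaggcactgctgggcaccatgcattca
Rptn (chr3:93393449-93393748, plus strand): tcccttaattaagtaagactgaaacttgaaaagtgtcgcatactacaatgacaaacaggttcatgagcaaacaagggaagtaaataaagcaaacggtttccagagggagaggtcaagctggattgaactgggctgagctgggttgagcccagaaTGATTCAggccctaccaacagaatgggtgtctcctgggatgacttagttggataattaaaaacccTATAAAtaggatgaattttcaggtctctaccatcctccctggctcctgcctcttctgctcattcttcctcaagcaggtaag
Sprr1b (chr3:92438730-92439029, minus strand): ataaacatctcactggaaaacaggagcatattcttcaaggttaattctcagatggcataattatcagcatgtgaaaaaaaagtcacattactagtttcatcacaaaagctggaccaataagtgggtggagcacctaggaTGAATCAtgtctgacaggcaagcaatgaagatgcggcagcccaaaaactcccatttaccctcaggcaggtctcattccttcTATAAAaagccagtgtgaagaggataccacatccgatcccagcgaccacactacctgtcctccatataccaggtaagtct
Sprr2i (chr3:92407741-92408040, plus strand): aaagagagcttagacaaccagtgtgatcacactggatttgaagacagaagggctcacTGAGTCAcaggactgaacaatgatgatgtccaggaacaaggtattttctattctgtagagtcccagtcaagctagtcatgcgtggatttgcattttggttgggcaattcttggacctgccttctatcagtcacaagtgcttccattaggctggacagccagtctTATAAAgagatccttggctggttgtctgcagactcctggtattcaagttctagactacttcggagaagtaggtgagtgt
S100a8 (chr3:90668821-90669120, plus strand): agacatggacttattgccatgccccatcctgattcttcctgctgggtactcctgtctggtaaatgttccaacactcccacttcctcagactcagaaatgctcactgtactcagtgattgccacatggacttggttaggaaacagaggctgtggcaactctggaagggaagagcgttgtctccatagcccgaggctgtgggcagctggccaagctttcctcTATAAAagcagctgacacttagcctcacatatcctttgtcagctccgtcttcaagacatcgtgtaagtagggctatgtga
Fos (chr12:85473640-85473939, plus strand): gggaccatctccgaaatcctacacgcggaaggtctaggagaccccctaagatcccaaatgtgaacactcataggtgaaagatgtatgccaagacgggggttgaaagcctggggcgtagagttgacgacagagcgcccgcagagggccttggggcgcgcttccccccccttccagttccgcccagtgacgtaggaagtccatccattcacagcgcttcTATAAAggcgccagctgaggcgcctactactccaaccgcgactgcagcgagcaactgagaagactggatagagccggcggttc
TGANTCA began 35 bases before the start in Mmp13, 96 in Rptn, 111 in Sprr1b and 193 in Sprr2i, and was in neither the S100a8 nor the Fos window. TATAAA stood 29 to 33 bases before the start in every one of these genes but Mmp13, where it began 16 bases before. Of all 32851 windows given 7.81% held TGANTCA, and of the 9789 windows of tested genes, which cover 7613 of the 9694, 5.67%. The share was 7.45% in windows of the genes called higher and 6.78% in those called lower. In genes that rose past 2-fold it was 9 of 30 windows (30.0%), and in the small proline-rich family 7 of 8 (87.5%). Lists that had no rise or few differed widely. The AP-1 motif was in 5 of 12 windows of the spinous genes (41.7%), of which 7 fell and none rose. It was in 4 of 12 windows of the list of filaggrin family genes and cross-linkers (33.3%), of which 7 fell and 2 rose. In the late envelope, barrier lipid and mitosis lists it was in 0 of 10, 0 of 14 and 0 of 34 windows. In the hypoxia and glycolysis list it was in 2 of 31 (6.45%). A link between the motif and the direction of change was not tested. None of the 25 windows of AP-1 and immediate early genes held it. TATAAA was in 7.94% of the windows of tested genes and in 12 of the 30 windows of genes that rose past 2-fold. The longer motif TGACGTCA, which contains no TGANTCA, was in 2.94% of the windows of tested genes and in 0 of the same 30. These are counts of letters, and binding was not measured.

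In the list of genes of KC activation and the wound edge 19 of 21 measured genes were tested, of which 13 rose (68.4%) and none fell, with a median difference of 0.49 against -0.00019 over all tested genes. Besides Krt6a, Krt6b and Mmp13, the third activation keratin Krt16 read 10.76, 10.78 and 10.82 in the Tcl1-/- arrays and 12.48, 12.45 and 12.48 in the K14-TCL1 arrays (3.21-fold). Stfa3, a stefin that inhibits cathepsins, rose 2.09-fold. The stromelysins Mmp3 and Mmp10 rose 1.81-fold and 1.44-fold, the gelatinase Mmp9 1.33-fold, and Itga5, the fibronectin receptor chain used in migration, 1.4-fold. Krt17, Krt75, Plaur and Tnc had differences of 0.066, 0.11, 0.12 and 0.044 and did not pass. The interleukin 36 gene Il1f6 rose by only 0.13 ± 0.036, and Il1f8 and Il1f9, at 0.066 and 0.14, did not pass. With any 1 of the 6 arrays left out Il1f6 did not pass either.

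Among alarmins and antimicrobial genes 8 of the 14 tested rose (57.1%) and 2 fell (14.3%), with a median difference of 0.14. S100a8 and S100a9 stood far from the rest of their family. S100a10 and S100a16 rose by 0.15 ± 0.036 and 0.13 ± 0.035, S100a4 fell by 0.12, and S100a6, S100a11 and S100a14 had differences of 0.053, 0.022 and 0.0014 and did not pass. The calls of S100a4, S100a10 and S100a16 were lost with any 1 of the Tcl1-/- arrays left out. Lcn2, a siderophore-binding protein, read 4.34, 4.44 and 4.57 in Tcl1-/- and 5.08, 5.35 and 5.52 in K14-TCL1. Its Tcl1-/- values all lie under the filter value of 5. The secreted inhibitor Slpi rose 1.34-fold. The defensins split. Defb1 was higher, at 9.82, 9.83 and 9.77 in the Tcl1-/- arrays and 10.45, 10.46 and 10.45 in the K14-TCL1 arrays. Defb6 was lower, at 12.15, 12.16 and 12.10 in Tcl1-/- and 11.76, 11.63 and 11.77 in K14-TCL1. S100a8 and S100a9 are also abundant in neutrophils. Of 11 measured neutrophil markers 7 (Csf3r, Elane, Mpo, Ngp, Ltf, Fpr1 and Itgam) were below the intensity filter in both genotypes, and Cxcr2 and Il1b, at -0.076 and 0.14, did not pass. The summed intensity of the list went from 492 to 514 in Tcl1-/- to 2319 to 2457 in K14-TCL1, and S100a8 and S100a9 are its only members that rose.

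The cornified envelope, the protein shell that replaces the membrane of dying KCs, differed by gene family. The small proline-rich (SPRR) proteins are flexible cross-bridges of the envelope that respond to stress. Of 9 genes tested 7 rose (77.8%) and none fell, with a median of 0.55. Sprr2i read 5.66, 5.51 and 5.64 in the Tcl1-/- arrays and 7.45, 7.61 and 7.45 in the K14-TCL1 arrays. Sprr2f read 4.31, 4.58 and 4.35 in Tcl1-/- and 6.13, 6.11 and 6.24 in K14-TCL1. Its Tcl1-/- mean of 4.41 is under the filter value of 5, so it was tested through its K14-TCL1 level alone. Sprr1b went from 10.15, 10.20 and 10.16 to 11.68, 11.63 and 11.71 (2.84-fold, adjusted p = 4.85e-07). Sprr1a rose 1.77-fold and Sprr2h, Sprr2d and the pseudogene Sprr2j-ps by 0.55, 0.54 and 0.33. Sprr3 and Sprr2k did not pass, at -0.0071 and 0.074, nor did Sprr2j-ps with any 1 of the Tcl1-/- arrays left out. The family shares sequence, so a probe set may also bind near-identical copies.

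The late cornified envelope genes, which lie in the same gene cluster and are made at the end of differentiation, were mostly lower. Of 12 tested 8 fell (66.7%) and 2 rose (16.7%), with a median of -0.16. The falls were shallow and steady. Lce1h read 12.41, 12.41 and 12.41 in the Tcl1-/- arrays and 12.12, 12.15 and 12.17 in the K14-TCL1 arrays, and the falls ran from 0.14 for Lce1f to 0.28 for Lce1d. The 2 that rose are of the Lce3 group, which is known to respond to skin injury: Lce3a, at 5.76, 5.63 and 5.42 in Tcl1-/- and 6.23, 6.46 and 6.37 in K14-TCL1, and Lce3c, which rose by 0.24 ± 0.05. Among filaggrin family genes, loricrin, involucrin and the transglutaminases 7 of 12 fell (58.3%) and 2 rose. Flg, Lor and Ivl fell by 0.25, 0.17 and 0.16, the filaggrin relative Hrnr by 0.30, the desmosome-coating plakin Ppl by 0.31 and Cdsn, the corneodesmosome protein, by 0.35. Rptn, a filaggrin relative as well, was the exception in size and direction, and the cross-linking enzyme Tgm3 rose by 0.31 ± 0.067. Only 4 or 5 of the late envelope genes passed as lower with any 1 of the Tcl1-/- arrays left out or without K14-TCL1 replicate 1. Ivl, Lce1f, Lce3c and Tgm3 lost their calls without Tcl1-/- replicate 1, and Lce3c and Tgm3 also without K14-TCL1 replicate 1.

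**Figure D3:**
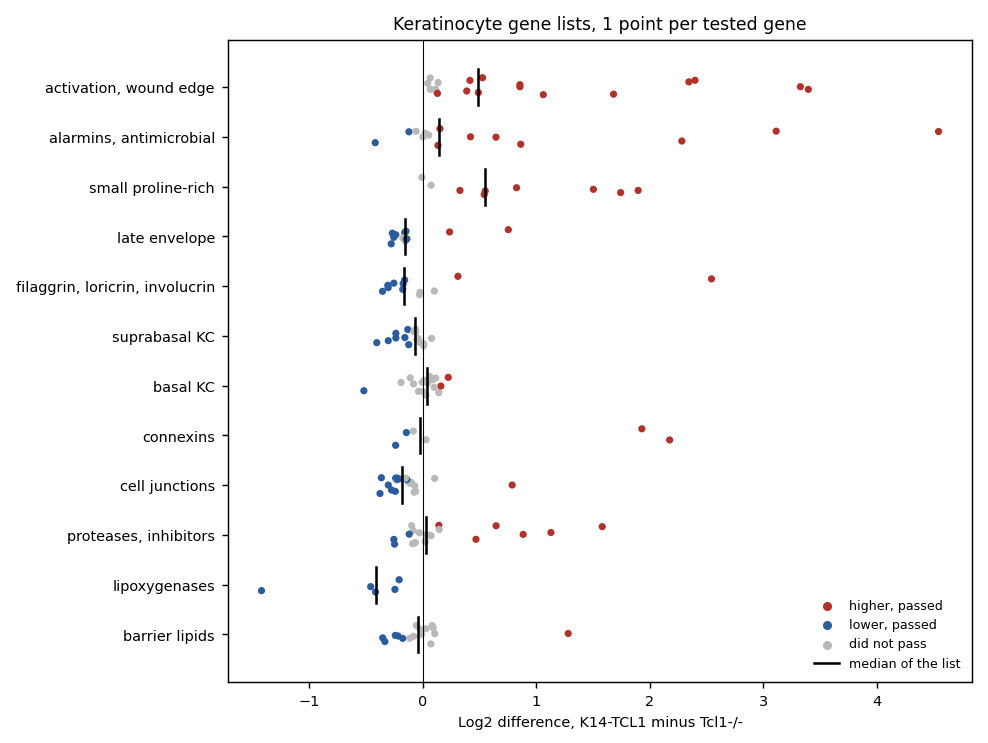
Log2 difference (K14-TCL1 minus Tcl1-/-) of each tested member of 12 KC gene lists, red where higher and blue where lower in K14-TCL1 past the test and gray where not, with a black bar at the median of the list. Activation and small proline-rich genes lie to the right with medians of 0.49 and 0.55, and all 5 genes of the lipoxygenase list lie to the left.

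Krt1, Krt5, Krt10 and Krt14, keratins of the layers themselves, differed little in the probe sets that stood for them. The sets of Krt10 and Krt14 read near the highest intensity of the arrays (20847), and any limit this puts on their differences was not tested. In the spinous and suprabasal list 7 of 16 genes fell (43.8%) and none rose, with a median of -0.071. Krt80 fell by 0.40 and the desmocollin Dsc1 by 0.30, the Notch receptor Notch3 and the terminal differentiation factor Prdm1 by 0.24 each. Krt10 fell by 0.12, and Krt1 had a difference of -0.063 ± 0.032 and did not pass. Leaving out K14-TCL1 replicate 2 gave 6 such falls, and leaving out any other array, or the filter on low intensities, gave 3 or 4. Krt10 and Dsc1 were among those lost with any 1 of the Tcl1-/- arrays left out. In the basal list 15 of 18 genes did not pass. The shares were 11.1% higher and 5.56% lower, against 11.2% and 12.6% of all tested genes. Krt5, Krt14 and the basal regulator Trp63 had differences of -0.038 ± 0.031, 0.044 ± 0.032 and 0.062 ± 0.045 and did not pass. For Krt14 the mean of its probe sets instead fell by 0.20 (limma, adjusted p = 0.0075). Itga6, part of the adhesion to the basement membrane, rose by 0.16, but did not pass without Tcl1-/- replicate 1 or 2. Lrig1, a stem cell marker and inhibitor of EGF receptors, fell from 8.92, 8.96 and 8.90 to 8.42, 8.53 and 8.27.

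Connexins form the channels of gap junctions, and 2 neighbouring genes of the family rose steeply. Gjb2 (connexin 26) read 8.56, 8.64 and 8.65 in the Tcl1-/- arrays and 10.80, 10.81 and 10.77 in the K14-TCL1 arrays (4.52-fold, adjusted p = 1.05e-07). Gjb6 (connexin 30) read 7.06, 7.05 and 7.13 in Tcl1-/- and 8.93, 9.10 and 9.01 in K14-TCL1 (3.81-fold, adjusted p = 6.74e-07). Gja1 (connexin 43), at 0.029, and Gjb5, at -0.083, did not pass. In the list of desmosomes, adherens and tight junctions 10 of 20 genes fell, with a median of -0.18. They include the tight junction genes Ocln (-0.38), Tjp3 (-0.36), Cldn1 (-0.23) and Cldn4 (-0.24), E-cadherin (Cdh1, -0.21) and plakoglobin (Jup, -0.27). The desmocollin Dsc2 alone rose, from 5.78, 5.41 and 5.71 to 6.28, 6.47 and 6.51, while Dsc1 fell and Dsc3, at -0.23, did not pass.

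Protease inhibitors of the serpin B family, which protect cells from their own and foreign proteases, were among the rises. Serpinb6c, Serpinb1a and Serpinb11 rose 2.99-fold, 2.19-fold and 1.85-fold, and the kallikreins Klk10 and Klk6 1.57-fold and 1.38-fold. In the whole list of epidermal proteases and inhibitors 6 of 19 rose (31.6%, against 11.2% of all tested genes) and 3 fell (15.8%, against 12.6%). The falls were those of Prss8 and Serpinb8 by 0.25 each and St14 by 0.12. Prss8 and St14 encode the membrane proteases prostasin and matriptase. The call of St14 was lost with any 1 of the Tcl1-/- arrays left out.

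Of 7 measured genes of the lipoxygenase list 5 were tested and all 5 fell, with a median of -0.42. Lipoxygenases oxidize the linoleate of epidermal ceramides, a step needed for the lipid envelope of the barrier. Alox12b and Aloxe3 act in series in this step, and both fell. Alox12b read 10.16, 10.15 and 10.18 in the Tcl1-/- arrays and 9.70, 9.71 and 9.70 in the K14-TCL1 arrays, while Aloxe3 went from 9.57, 9.58 and 9.60 to 9.34, 9.41 and 9.27. Alox12 fell by 0.42 and Alox5ap, which presents substrate to a lipoxygenase, by 0.21, besides Alox12e above. In the barrier lipid list 5 of 16 genes fell and 1 rose. Degs2, which makes phytoceramides, read 7.13, 7.09 and 7.02 in Tcl1-/- and 8.39, 8.30 and 8.39 in K14-TCL1 (2.43-fold). The fatty acid 2-hydroxylase Fa2h and the elongase Elovl6 fell by 0.35 and 0.33, and Acer1, Ugcg and Sgpl1 by 0.24, 0.22 and 0.18. The other probe sets of Ugcg, at -0.18 and 0.080, did not pass. The barrier lipid falls were 3 without Tcl1-/- replicate 1 or 3 or K14-TCL1 replicate 3.

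Ligands of the EGF receptor, which activated KCs release to stimulate their own growth, were higher in K14-TCL1. Epgn (epigen) read 7.36, 7.28 and 7.32 in the Tcl1-/- arrays and 8.60, 8.64 and 8.59 in the K14-TCL1 arrays (2.44-fold, adjusted p = 1e-06). Areg (amphiregulin) read 5.46, 5.56 and 5.55 in Tcl1-/- and 6.53, 6.45 and 6.16 in K14-TCL1 (1.81-fold). Ereg (epiregulin) and Hbegf rose 1.48-fold and 1.31-fold. The ligands Tgfa and Btc, at 0.077 and 0.11, did not pass. On the receiving side Egfr had a difference of -0.02 ± 0.038 and did not pass, and Erbb2, Erbb3 and the inhibitor Lrig1 fell by 0.17, 0.24 and 0.52. In all, 4 of 12 genes of the list rose and 3 fell, and Erbb2 lost its call without Tcl1-/- replicate 1 or 2.

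Immediate early genes, the transcription factors and regulators that KCs switch on within minutes of a stimulus, moved downward where they passed, with Fosl1 as the exception. Of 25 tested 12 fell (48.0%) and 1 rose (4.0%), with a median of -0.14. Egr1 read 11.43, 11.42 and 11.51 in the Tcl1-/- arrays and 10.98, 10.99 and 10.92 in the K14-TCL1 arrays (adjusted p = 0.000365). Fos read 11.25, 11.30 and 11.32 in Tcl1-/- and 10.82, 10.90 and 10.81 in K14-TCL1 (adjusted p = 0.000584). Egr2, Btg2, Ccn1, Junb and Jun fell by 0.39, 0.37, 0.32, 0.30 and 0.29. Fosl1, which encodes the AP-1 subunit FRA-1 found in activated and migrating KCs, rose from 6.34, 6.34 and 6.43 to 6.62, 6.67 and 6.70. Fosb, Fosl2, Jund and Atf3, at -0.14, -0.058, -0.081 and 0.10, did not pass. Among phosphatases and other feedback genes of MAP kinases 3 of 14 rose (21.4%) and 2 fell (14.3%), against 11.2% and 12.6% of all tested genes. Without K14-TCL1 replicate 2 there were 4 falls. Dusp1, an immediate early gene that acts on JNK and p38, read 11.09, 11.15 and 11.13 in the Tcl1-/- arrays and 10.57, 10.59 and 10.56 in the K14-TCL1 arrays (adjusted p = 9.77e-05). Dusp6, the phosphatase of ERK that is induced by ERK itself, rose 1.31-fold and Phlda1, another gene of that kind, 1.46-fold. Spred1 rose by 0.22, with a call lost without Tcl1-/- replicate 1 or 2 or K14-TCL1 replicate 1, while the ERK feedback genes Spry1, Spry2, Spred2 and Etv4, at -0.17, 0.19, -0.16 and 0.13, did not pass.

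TCL1 is known to act on AKT, and the study grew KCs with IGF-1, a factor that can signal through it. The kinase assay of the paper, however, found AKT activity in knockout and transgenic KCs not significantly different from that in WT. In the IGF axis 4 of 13 tested genes fell and 1 rose. Igfbp3, which binds IGF-1 outside the cell, read 11.66, 11.62 and 11.68 in Tcl1-/- and 11.23, 11.25 and 11.17 in K14-TCL1. Igfbp4 read 9.56, 9.41 and 9.53 in the Tcl1-/- arrays and 8.99, 8.98 and 9.02 in the K14-TCL1 arrays. Igfbp7 and Irs1, the docking protein of the receptor, fell by 0.38 and 0.39, and Igfbp6 rose by 0.33 ± 0.086. The other probe set of Igfbp7, at -0.038, did not pass. The receptors Igf1r and Igf2r and the ligands Igf1 and Igf2 had differences of -0.014, 0.04, 0.067 and 0.014 and did not pass. In the list of AKT, mTOR and FOXO genes 12 of 18 did not pass, among them Akt1 (-0.026 ± 0.037), Akt2 (-0.052 ± 0.036) and Foxo1 (0.032 ± 0.038). Mtor, Ddit4, Sesn3 and Pik3r2 fell by 0.18 to 0.23, and Pik3r1 and Gsk3b rose by 0.27 and 0.14. The share lower was thus 22.2% and the share higher 11.1%, against 12.6% and 11.2% of all tested genes. The direction of Pik3r1 and Mtor depends on the probe set: the other sets of Pik3r1 differed by -0.22 and -0.044 (-0.00039 for the mean of its sets), and the other set of Mtor by 0.12. The calls of Pik3r1, Gsk3b, Sesn3 and Igfbp6 were lost without Tcl1-/- replicate 1. Phosphorylation of these proteins is not measured by arrays.

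**Figure D4:**
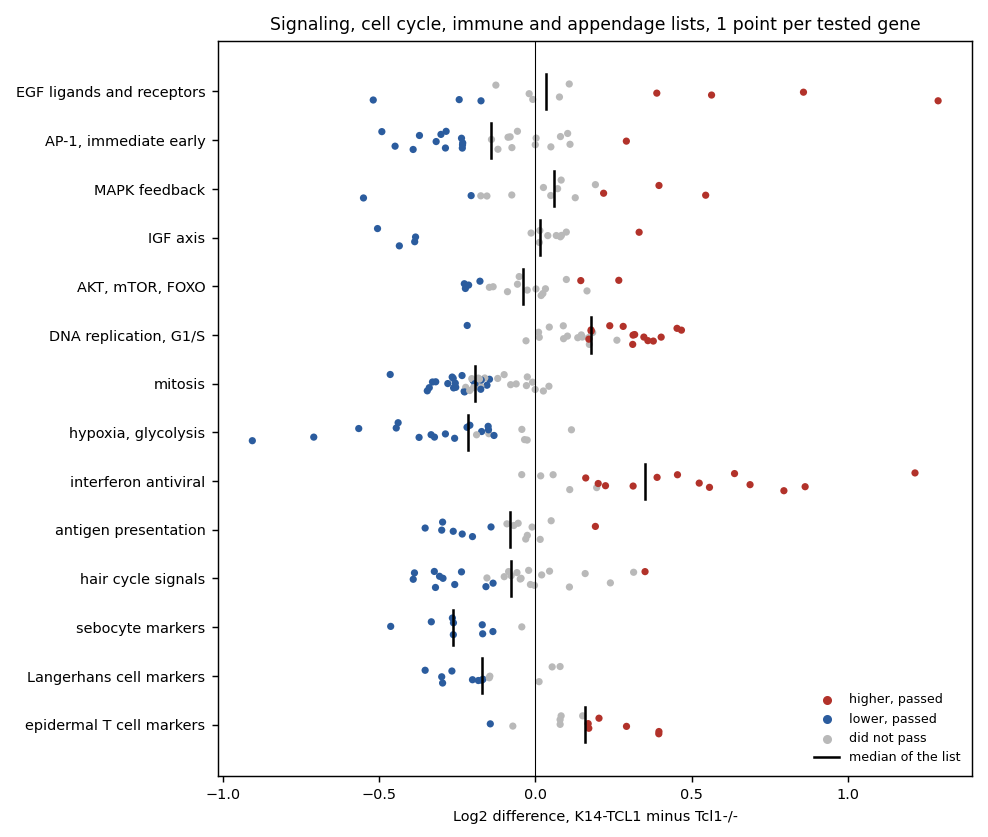
Log2 difference (K14-TCL1 minus Tcl1-/-) of each tested member of 14 lists of signaling, cell cycle, immune and appendage genes, colored by the test as red (higher), blue (lower) or gray (did not pass), with a black bar at the median of the list. The replication and mitosis lists lie on opposite sides of 0, with medians of 0.18 and -0.19.

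The cell cycle lists had medians of opposite sign. Of 29 genes of DNA replication and G1/S 14 rose (48.3%) and 1 fell, with a median of 0.18. Mcm6, a subunit of the replicative helicase, read 8.74, 8.76 and 8.73 in Tcl1-/- and 9.14, 9.14 and 9.15 in K14-TCL1. Mcm5 read 7.34, 7.17 and 7.34 in the Tcl1-/- arrays and 7.76, 7.80 and 7.65 in the K14-TCL1 arrays. Mcm2, Mcm3, the single-strand binding protein Rpa2, the ligase Lig1 and cyclin Ccne2 rose by 0.38, 0.35, 0.47, 0.31 and 0.36. The other probe set of Rpa2, at -0.010, did not pass. The reductase subunit Rrm2, which peaks in S phase, fell by 0.22, but did not pass without Tcl1-/- replicate 1 or 3 or K14-TCL1 replicate 1 or 3. The 2 other probe sets of Rrm2 differed by -0.91 and -0.11, and 1 of them passed as lower. Of 39 mitosis genes 20 fell (51.3%) and none rose, with a median of -0.19. Mki67, the proliferation marker Ki-67, read 9.87, 9.81 and 9.78 in Tcl1-/- and 9.49, 9.52 and 9.50 in K14-TCL1. Ccnb2 read 8.06, 8.19 and 8.06 in the Tcl1-/- arrays and 7.74, 7.79 and 7.79 in the K14-TCL1 arrays. Kif20a, Anln and Nek2 fell by 0.46, 0.35 and 0.34. Birc5, Kif11, Ndc80 and Bub1, at -0.00094, -0.0094, -0.029 and 0.043, did not pass. There were 13 falls without Tcl1-/- replicate 2 or 3 or K14-TCL1 replicate 1, and no gene of this list was called higher under any setting tried.

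Genes of the hypoxia response and glycolysis fell, 16 of 22 tested (72.7%) with none higher, at a median of -0.21. Egln3 read 11.06, 11.05 and 11.08 in Tcl1-/- and 10.17, 10.15 and 10.16 in K14-TCL1. Bnip3, a mitophagy receptor induced by HIF-1, read 10.13, 10.15 and 10.17 in the Tcl1-/- arrays and 9.39, 9.45 and 9.48 in the K14-TCL1 arrays. P4ha2, Pfkp, the lactate exporter Slc16a3 and Vegfa fell by 0.56, 0.44, 0.44 and 0.37. The other probe set of Vegfa, at -0.074, did not pass. Among enzymes of glycolysis Ldha, Pgk1 and Pkm fell by 0.17, 0.15 and 0.13, the latter pair with calls lost with any 1 of the Tcl1-/- arrays left out. Car9, Hk2 and Gpi1, at -0.035, -0.026 and 0.12, did not pass. Of 29 oxidative phosphorylation genes tested 4 rose (13.8%) and 2 fell (6.9%), against 11.2% and 12.6% of all tested genes, and 23 did not pass. The rises were at most 0.23 (Ndufa4), and the complex II genes Sdha and Sdhc fell by 0.16 and 0.18. A single gene of these 29 was higher with any 1 of the Tcl1-/- arrays left out or without K14-TCL1 replicate 1. Among redox genes 9 of 27 rose and 5 fell. Besides Gsta4, the rises include Cbr2 (0.41), Nqo1 (0.38) and Gsto1 (0.33), and the metallothionein of stratified epithelia, Mt4, fell by 0.36. The redox genes called lower were 2 or 3 without Tcl1-/- replicate 1 or 2 or K14-TCL1 replicate 1 or 3.

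Antiviral genes induced by type I interferon rose, 13 of 18 tested (72.2%) with none lower, at a median of 0.35. Oasl2 read 5.85, 5.98 and 5.92 in Tcl1-/- and 6.79, 6.82 and 6.72 in K14-TCL1. Oas1a, a sensor of double-stranded RNA, read 8.18, 8.08 and 8.16 in the Tcl1-/- arrays and 8.82, 8.73 and 8.78 in the K14-TCL1 arrays. Usp18 and Rtp4 rose 1.61-fold and 1.73-fold and Ifit1 by 1.21 ± 0.13 from below the filter value in Tcl1-/- (4.21, 4.32 and 4.23). Irf7, Mx2 and Oasl1, at -0.044, 0.056 and 0.017, did not pass, and of 24 measured genes 6 were below the filter. Of 6 tested GTPases that are induced mainly by interferon gamma none rose. Irgm1 and Gbp6, at 0.26 and 0.23, did not pass, and Irgm2 fell by 0.17 with a call that was lost with any 1 of the Tcl1-/- arrays left out.

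In the antigen presentation list 7 of 16 tested genes fell (43.8%) and 1, the class I gene H2-Q7, rose (0.19 ± 0.041), though not without Tcl1-/- replicate 2 or 3. Those of MHC class II were among the falls. Cd74, the invariant chain, read 11.97, 11.85 and 11.86 in Tcl1-/- and 11.55, 11.54 and 11.53 in K14-TCL1. H2-Ab1 read 10.71, 10.69 and 10.64 in the Tcl1-/- arrays and 10.38, 10.37 and 10.39 in the K14-TCL1 arrays. H2-Eb1, H2-DMa and H2-Aa fell by 0.30, 0.26 and 0.20. In the epidermis class II genes mark Langerhans cells, of whose 13 tested markers 8 fell (61.5%) and none rose, with a median of -0.17. Cd74, H2-Ab1, H2-Eb1 and H2-Aa are among these falls as well. The other probe sets of H2-Ab1 fell by 0.63 and 0.38, and that of H2-Aa by 0.56. Some sets of other MHC genes differed abruptly (below), and the part of mouse strain in these falls was not tested. Langerin (Cd207) read 9.47, 9.40 and 9.52 in Tcl1-/- and 9.27, 9.34 and 9.28 in K14-TCL1, and the receptor Csf1r fell by 0.27, while Itgax and Tyrobp, at -0.15 each, did not pass. The summed intensity of the list was 13696 to 14219 in Tcl1-/- and 11676 to 11690 in K14-TCL1. Markers of epidermal T cells moved the other way, with 6 of 12 higher and Itgae alone lower, a call that was lost with any 1 of the Tcl1-/- arrays left out. Cd3d read 6.88, 6.84 and 6.99 in the Tcl1-/- arrays and 7.21, 7.38 and 7.31 in the K14-TCL1 arrays, Ctla2a and Il2rb rose by 0.39 and 0.29, and Cd3e, Cd3g and Ptprc, at 0.079, 0.15 and -0.072, did not pass. There were 3 T cell markers called higher without Tcl1-/- replicate 1 or 2, Il2rb lost its call without K14-TCL1 replicate 2 or 3, and Cd207 lost its call without Tcl1-/- replicate 1 or 3 or K14-TCL1 replicate 1 or 3.

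Of other cells a sheet could hold, melanocyte, endothelial, muscle and fat and erythroid markers gave no call. Of the macrophage and mast cell markers C1qa rose by 0.36 ± 0.066 and Cd68 fell by 0.24. In the fibroblast list Vim fell by 0.38, Fbln1 rose by 0.58 ± 0.043, and Col1a1, Col3a1, Lum and Pdgfra were below the filter. The summed intensity of the fibroblast list was 4091 to 4205 in Tcl1-/- and 4025 to 4131 in K14-TCL1. The part of these cells in the results above was not tested.

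Sebocyte markers were lower, 8 of 9 tested, with a median of -0.26 and a summed intensity of 17163 to 17521 in Tcl1-/- against 14429 to 14648 in K14-TCL1. Scd3, a desaturase of sebocytes, read 6.63, 6.63 and 6.70 in Tcl1-/- and 6.12, 6.16 and 6.30 in K14-TCL1. Krt79, a keratin of the gland duct, read 12.83, 12.83 and 12.78 in the Tcl1-/- arrays and 12.46, 12.50 and 12.47 in the K14-TCL1 arrays. Pparg and Elovl3 fell by 0.26 and 0.27. Among signals and regulators of the hair cycle 10 of 27 fell (37.0%) and 1 rose, with a median of -0.078. They include readouts and genes of Hedgehog signaling (Gli1 and Ptch1, by 0.32 and 0.31), of WNT signaling (Wnt3, Axin2 and Wnt10b, by 0.39, 0.30 and 0.24) and the hair differentiation factors Foxn1 and Msx2 (by 0.32 and 0.26). Wnt5a rose by 0.35 ± 0.058, but its other probe set, at -0.014, did not pass. Of 12 tested hair shaft and root sheath genes Msx2 alone was called. Bulge markers were mixed, with Tcf3 lower by 0.17, Cdh13 higher by 0.25 and 8 of 10 not passing. For Cdh13 the other probe set differed by -0.13 and the mean of its sets by -0.049, so its direction depends on the probe set. The hair cycle falls were 6 without Tcl1-/- replicate 1 or K14-TCL1 replicate 1. The call of Pparg was lost with any 1 of the 6 arrays left out, those of Gli1 and Wnt10b without Tcl1-/- replicate 1 or K14-TCL1 replicate 1, and those of Tcf3 and Cdh13 without Tcl1-/- replicate 2 or 3 or K14-TCL1 replicate 1.

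Other lists showed few calls or calls in both directions. Of 33 ribosomal protein genes 31 did not pass, and Rps6 rose by 0.67 ± 0.055. Of 29 apoptosis and p53 genes 26 did not pass, and of 21 heat shock genes 17. Over all tested genes 23.8% were called. Clock genes split, with Per3 lower (7.72, 7.68 and 7.67 in Tcl1-/- and 7.07, 7.23 and 7.24 in K14-TCL1) and Dbp higher by 0.27 ± 0.033. In the actin and motility list 8 of 26 rose, led by the tubulin Tubb6 (2.61-fold) and followed by profilin (Pfn1, 0.39) and tropomyosin 2 (Tpm2, 0.33), and 4 fell, among them Cap1 by 0.46 and Lcp1 by 0.40. With the mean of all probe sets of a gene 4 rose and 2 fell, and without Tcl1-/- replicate 1 or 3 or K14-TCL1 replicate 1 or 3 there were 2 falls. Among cytokines Il33 and Il1a, alarm cytokines of KCs, rose by 0.48 ± 0.033 and 0.63 ± 0.15 (Il1a not without Tcl1-/- replicate 1 or 3), and the chemokine Cxcl14, made by resting KCs, fell by 0.55. Efemp1, a matrix glycoprotein, was called higher, at 4.42 in Tcl1-/-, under the filter value, and 6.04 in K14-TCL1.

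Genes measured by PCR were picked on these samples and are no independent evidence. All 10 of them passed the test, 8 higher and 2 lower. Those not yet given are Stk25, a kinase of the STE20 family, at 6.49, 6.46 and 6.42 in the Tcl1-/- arrays and 7.90, 7.87 and 7.89 in the K14-TCL1 arrays (2.7-fold), and Dio2, which activates thyroid hormone, at 7.11, 7.10 and 7.11 in Tcl1-/- and 7.52, 7.65 and 7.53 in K14-TCL1 (1.37-fold). The other probe sets of Dio2, at 0.10 and 0.13, did not pass.

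Several genes with large differences stood next to each other on the chromosome. Of the 127 genes past 1.5-fold 126 could be placed on the RefSeq map, among 9547 tested genes of which they make up 1.32%. There were 16 neighbouring pairs with at most 2 tested genes between them, 6 of them with none, and 14 pairs moved in the same direction. They include Krt6b with Krt6a, Gjb2 with Gjb6, S100a8 with S100a9 and on to Sprr2f, Sprr2i, Sprr1b and Sprr1a, Mmp13 with Mmp3, Epgn with Areg, and Cyp2g1 with Cyp2f2. Opposite in direction were Rpgrip1 with Supt16 (0.86) and Smpd3 (-0.62) with Has3. Where a pair holds near-identical copies, as Krt6a with Krt6b or the Sprr2 genes, probes may share signal.

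Where a gene had several probe sets, they could be set against each other. Of 944 called genes with another tested probe set, all others had the same sign in 741, and 410 had another set called the same way. Past 1.5-fold this held for 23 and 18 of 27. Krt6a rose by 2.81, 2.35 and 2.51 in its 3 probe sets, and all 5 sets of Stom rose, by 0.59 to 0.93. In other genes 1 set stood apart. For Deptor, an inhibitor of mTOR, the strongest set rose by 1.02 and the others, at 0.066 and -0.18, did not pass. Snx6 rose by 2.58 in 1 set and by 0.40 and 0.37 in the others. The widest gap was in the MHC class I gene H2-D1, of whose 8 sets 2 fell by 6.60 and 5.50 (from 11.24, 11.18 and 11.11 to 4.52, 4.57 and 4.63 in the first), while the others had differences from -0.30 to -0.075. H2-K1 fell by 2.57 in 1 set and had differences from -0.13 to 0.015 in the others. Whether a difference in DNA sequence under these probes, as between mouse strains, contributes was not tested.

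**Figure D5:**
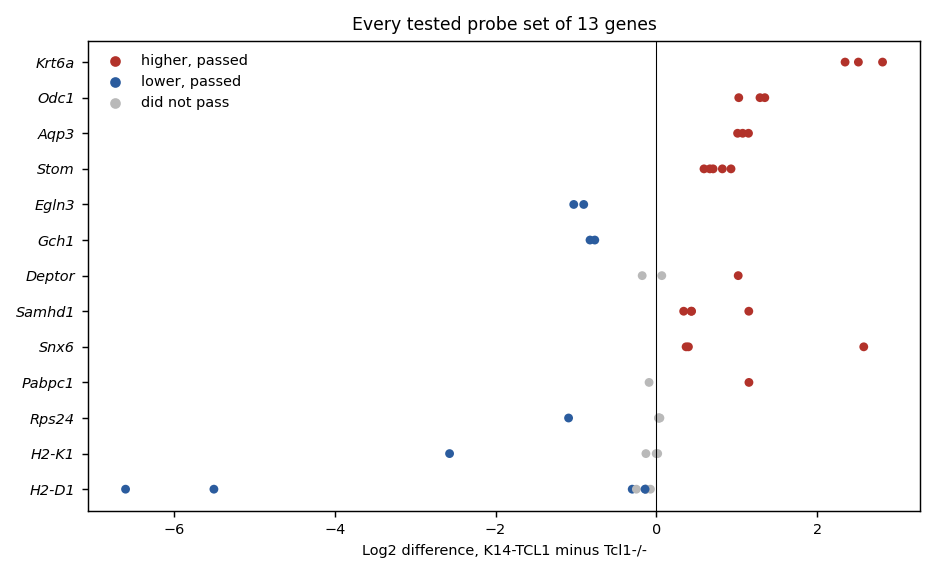
Log2 difference (K14-TCL1 minus Tcl1-/-) of every tested probe set of 13 genes, chosen after their values were seen, with sets that passed the test in red or blue and the others in gray. The sets of Krt6a, Odc1, Aqp3, Stom, Egln3 and Gch1 lie together, and H2-D1 spreads from -6.60 to -0.075.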

How the data were processed

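Total RNA of epidermal sheets was hybridized to Affymetrix mouse arrays. The pan-genomic mouse array that the methods name carries more probe sets than the 22690 in the table, and genes measured are those in the table. The authors deposited intensity values that the submitters' notes credit to RMA (background correction, quantile normalization and a summary of the probes of a set), with no version stated, and log2 of the deposited intensities was taken. The 6 arrays ran from 4.98 to 20847. A second table holds the same values in all 181520 cells and was not used further. Such values hold no count, and the number of arrays limits the precision.

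Control probe sets (64) and sets with no gene name (492) or several (578) were left out. Of 21556 names, 19478 were current in RefSeq, 1632 were updated and 446 kept as given. The set with the highest mean over the 6 arrays stood for a gene. Genes with a higher genotype mean under 5 (log2), 3507 in all, were not tested. Genotypes were compared with limma 3.58.1 in R 4.3.3 (a mean per genotype, 1 prior variance, 4 residual and 3.36 prior degrees of freedom, Benjamini-Hochberg over 9694 genes). The fit was tested on simulated data. P-values set the difference against the spread between animals of a genotype. Lists were described by counts and medians with no test of a list. Promoter letters were counted in RefSeq windows. Figures were drawn with matplotlib 3.10.9.

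Members, lists and tests were chosen with earlier results of these data known. Named genes are the 12 largest differences in each direction whose arrays do not overlap, up to 4 called members of each list by smallest p, members against its direction, the Tcl1 family and the genes measured by PCR. Further genes were named after their values were seen, and some items that the rules name are not reported here. Alternatives were other filters, probe set rules, variance models, scalings, the WT arrays in the fit, the replicate number as a block and each array left out.

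The numbers that arrays carry did not pair them. Correlations of the deviations of same-numbered arrays from their genotype means were -0.029, -0.0040 and -0.064, so the fit has no block.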

Additional observations from a re-analysis of the deposited data

Results flagged for a closer look

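Probe sets that carry no single gene name lie outside the comparisons above, and some passed the same test. Of 151 tested sets with no name 16 were higher in K14-TCL1 and 16 lower. Of 387 sets with several names 51 were higher and 45 lower. With every probe set tested by itself, 1373 of 15298 sets with a single gene name were higher and 1708 lower. Whether the shares differ between these kinds of sets was not tested.

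Among those with several names, the set that names H2-Ea-ps, an MHC class II alpha chain pseudogene, and LOC100504404 read 9.30, 9.36 and 9.34 in the Tcl1-/- arrays and 3.73, 3.66 and 3.51 in the K14-TCL1 arrays, and a second set with these names 9.01, 9.17 and 9.20 in Tcl1-/- and 6.80, 6.83 and 7.01 in K14-TCL1. H2-Ea is known to be silent in mice of the H2 haplotype b, such as C57BL/6. The set shared by H2-D1 and H2-L read 10.09, 10.09 and 10.03 in the Tcl1-/- arrays and 4.99, 5.03 and 4.98 in the K14-TCL1 arrays. Neither haplotype nor strain was measured, and their part in the differences was not tested. The Sprr2a sets rose by 0.69 and 0.56, and the set of eosinophil ribonucleases (Ear1, Ear2, Ear3 and relatives) fell by 1.29.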

How the results depend on the processing

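With 3 arrays a genotype, the count of calls depended on the arrays most. Leaving out each array in turn gave 1351 to 2344 genes called, the lowest without Tcl1-/- replicate 1 (and 1498 and 1450 without replicates 2 and 3) and the highest without K14-TCL1 replicate 2. Those higher numbered 646 to 1046 and those lower 705 to 1298. Other settings gave 1645 to 3081. No replicate pairing was found, and with the replicate number as a block 1645 genes were called, 1584 of them in the main 2310 with the same direction, while 0 of 3 K14-TCL1 arrays correlated best with the Tcl1-/- array of their own number. Centring each array on its median gave 2384, of which 41.9% were higher against 47.0%, as it moves the median of all genes to -0.011. With the methods' criteria, 243 probe sets passed with the WT arrays in both the filter and the fit, which were not changed separately, and 157 to 223 when an array was left out (20% of 5 arrays is 1 array), against 98.

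Of the genes named in the text, between 12 and 35 lost the call without a given array, fewest without K14-TCL1 replicate 2 and most without Tcl1-/- replicate 1. With the mean of all probe sets of a gene, 4 named genes changed sign, Cdh13 (-0.049), Krt14 (-0.20), Pik3r1 (-0.00039) and H2-K1 (-0.67), and H2-K1 also did so at -2.57 with sets ending in _x_at or _s_at left out, which leaves the set that stood apart. The median fold of the genes that passed was 1.17, and for genes near the filter value of 5 the signal over background limits what can be seen.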

Other observations

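Chromosome 14 held more of the large differences than its share. By the RefSeq map 15 of its 323 tested genes (4.64%) passed 1.5-fold, against 1.32% of all tested genes and 0.275% to 2.34% on the other autosomes and the X, while the share of called genes was 29.1% there and 21.1% to 25.7% elsewhere. The chromosome was chosen after these values were seen, and no test was made. The 15 genes, 8 higher and 7 lower, run along it in the order Ptprg (-0.71), Cdhr1 (1.65), 2610528A11Rik (2.29), Ear2 (-0.80), Gch1 (-0.83), Peli2 (0.71), Ccnb1ip1 (0.69), Rnase2b (-0.63), Rpgrip1 (-1.26), Supt16 (0.86), Rec8 (0.68), Gjb2 (2.18), Gjb6 (1.93), Entpd4 (-0.66) and Diaph3 (-0.99). Cdhr1 and Ccnb1ip1 averaged 4.24 and 4.95 in Tcl1-/-, and Diaph3 4.87 in K14-TCL1, under the filter value of 5.

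Procr and Thbd, whose proteins are receptors of the protein C pathway, were called higher. Procr read 5.55, 5.29 and 4.88 in Tcl1-/- and 7.32, 7.45 and 7.41 in K14-TCL1, while Thbd averaged 5.61 in Tcl1-/- and 6.94 in K14-TCL1. Both were picked after their values were seen. Samhd1, a nucleotide hydrolase induced by interferon, rose by 1.15 in its strongest set and by 0.34, 0.43 and 0.44 in the others.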
